A study of Mus musculus with 5 samples.

Results

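The genes described here are the core cardiac transcription factors Gata4, Gata6, Nkx2-5, Tbx5, Tbx20, Hand1, Hand2, Mef2a, Mef2c and Mef2d, which were chosen by name and were all found among the 49671 genes of the count table. All 10 passed the filter on low counts and so belong to the 14880 genes tested. Their RNA was measured in whole mouse hearts at postnatal day 2 (PN2), in 3 CharmeWT pools and 2 CharmeKO pools of C57BL6/J mice. CharmeKO mice carry a PolyA signal inserted into the locus of Charme, a muscle-restricted long non-coding RNA, and CharmeWT littermates do not. Each CharmeWT pool held 9 hearts and each CharmeKO pool 3, so genotype and the number of hearts per pool cannot be told apart. A pool is the replicate throughout, and the p-values set a genotype difference against the spread between these pools. In edgeR's test the spread of each gene is estimated with information shared over all tested genes.

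Heart formation is directed by a small set of DNA-binding proteins that bind enhancers of the same cardiac genes and regulate each other. The GATA zinc-finger proteins, the homeodomain protein NKX2-5 and the T-box proteins bind together at genes of the contractile apparatus and of conduction, and the HAND basic helix-loop-helix proteins act in the growth of the ventricles. The MADS-box proteins of the MEF2 family switch on muscle structural genes, and their activity is held back by class IIa histone deacetylases and raised by calcium-dependent kinases and phosphatases.

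The libraries held 16721055 to 21646378 counts on genes. Charme itself had 810, 183 and 276 counts in the CharmeWT pools and 57 and 79 in the CharmeKO pools, so the groups did not overlap, and its log2 fold change was -2.49 ± 0.55 (SE; adjusted p = 0.0763 by edgeR's quasi-likelihood test). Cardiomyocyte markers, summed over 10 genes, reached 48104 to 62626 CPM (counts scaled to the size of the library) in CharmeWT and 51126 to 56901 in CharmeKO and none of them was at 0 in any pool. Summed salivary gland markers stood at no more than 3.69 CPM in CharmeWT but at 330 and 24856 in CharmeKO pools 1 and 2, and 6 adipose markers at no more than 40.6 CPM in CharmeWT but at 69.8 and 1080 in CharmeKO. The 7 erythroid markers also did not overlap, with 870 to 1254 CPM in CharmeWT and 1619 to 2284 in CharmeKO, nor did the 6 epicardial markers, with 27.7 to 96.0 against 134 to 143. The 9 skeletal muscle markers were low but also apart, with 9.71 to 11.3 CPM in CharmeWT and 24.0 and 46.9 in CharmeKO. The part of these other tissues in the results below was not tested. Leaving the salivary gland markers and the mitochondrial genes out before scaling left the median log2 fold change of the 10 core factors at -0.36. That step takes out only the named genes and not the other RNA of these tissues, so it cannot measure their part.

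Every core factor had a log2 fold change below 0 in CharmeKO hearts, as did 48.2% of all tested genes. The median over the 10 was -0.36, against 0.02 over all genes tested. Over the fifth of tested genes with the highest transcript GC content, which holds 6 of the 10, it was -0.22. Over the fifth with the lowest, which holds Tbx20, Mef2a and Mef2c, it was 0.31. No core factor was called at an adjusted p under 0.1 with edgeR's quasi-likelihood test, where 2.05% of the tested genes were called. At an unadjusted p under 0.05, a level that 18.6% of tested genes reached, 1 of the 10 passed, and this was Mef2d. Both CharmeKO pools lay below every CharmeWT pool for 6 of the 10, namely Gata4, Gata6, Nkx2-5, Hand1, Hand2 and Mef2d, compared with 18.2% of all tested genes and 28.8% of those in the highest GC class, to which all 6 belong. None of the 10 had both CharmeKO pools above every CharmeWT pool, compared with 17.8%. In whole-heart RNA, fewer cells that express a gene and less of its RNA per cell cannot be told apart.

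**Figure D1:**
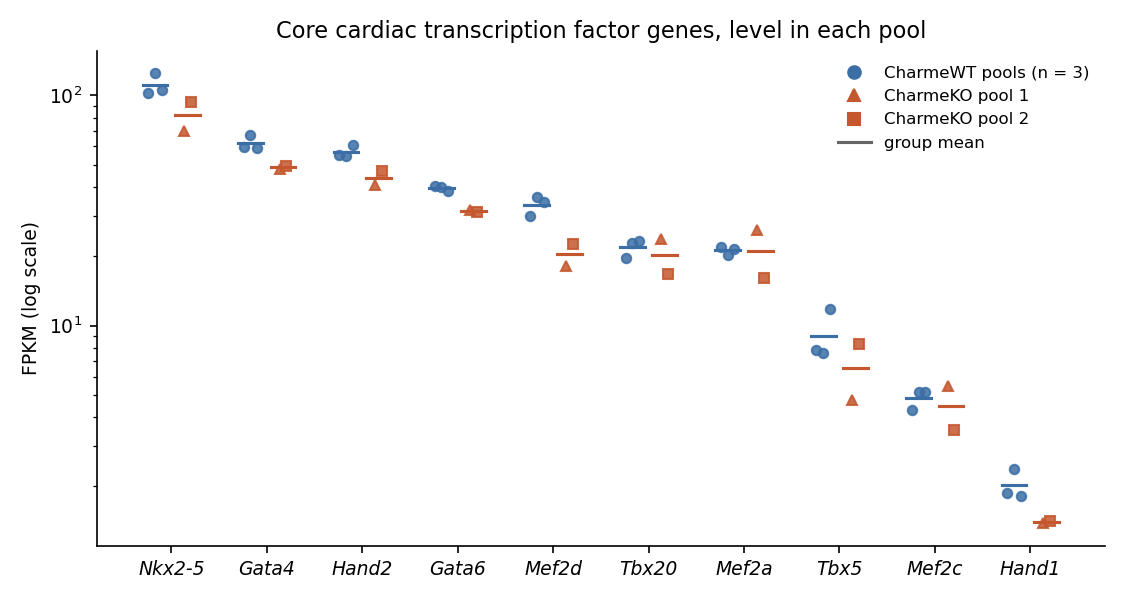
FPKM (log axis) of the 10 core factor genes in each pool, ordered by the CharmeWT mean. Circles are the 3 CharmeWT pools, the triangle and the square are CharmeKO pools 1 and 2, and lines are group means. The CharmeKO symbols lie below all circles for 6 genes, and for Tbx20, Mef2a and Mef2c they lie on either side of the circles.

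The levels spanned a wide range. FPKM (fragments per kilobase of merged exons, scaled to the size of the library) averaged 111 ± 12.2 (SD, n = 3) for Nkx2-5 in CharmeWT hearts and 2.03 ± 0.31 for Hand1. Between these, in falling order, stood Gata4, Hand2, Gata6, Mef2d, Tbx20, Mef2a, Tbx5 and Mef2c. The CharmeWT ranges of neighbours in this order did not overlap, except those of Gata4 with Hand2 and Tbx20 with Mef2a. The order rests on the gene lengths used. In the deposited FPKM table, made with another gene length, Gata6 averaged 80.6 in CharmeWT and took the second place, and Nkx2-5 averaged 125, while the other 8 genes had the values given here. In CharmeKO the ranges of Mef2a, Mef2d and Tbx20 ran into each other, as did those of Tbx5 and Mef2c.

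The MEF2 genes held the largest and the smallest fold change of the 10 before any correction for gene length and GC content, and Hand1 and Gata6 after it. Mef2d (ENSMUSG00000001419; chromosome 3, 88142372 to 88172086, plus strand, GRCm38) encodes a MEF2 protein found in many tissues and abundant in striated muscle. Its FPKM was 29.9, 36.0 and 34.4 in the CharmeWT pools and 18.2 and 22.7 in the CharmeKO pools. All CharmeWT pools lay above both CharmeKO pools, whose mean was 61.2% of the CharmeWT mean. The log2 fold change was -0.71 ± 0.19 (SE; 95% confidence interval -1.12 to -0.29) with an adjusted p of 0.120 by edgeR's quasi-likelihood test, which does not pass the threshold. Under edgeR's likelihood ratio test, the test of the study's methods, which called 6.27% of tested genes, the adjusted p of Mef2d was 0.0454, and under DESeq2, which called 7.54%, it was 0.0213. Mef2d was the core factor called under either of these tests, and no other of the 10 was.

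Mef2a (ENSMUSG00000030557; chromosome 7, 67231163 to 67372858, minus strand), whose protein binds the same DNA element, had FPKM values of 21.9, 20.2 and 21.6 in CharmeWT and 26.0 and 16.1 in CharmeKO. CharmeKO pool 1 was thus above every CharmeWT pool and CharmeKO pool 2 below every one, and the log2 fold change was -0.01 ± 0.22. Mef2c (ENSMUSG00000005583; chromosome 13, 83504034 to 83667080, plus strand), the MEF2 gene of the earliest heart muscle, behaved in the same way at a lower level. It measured 4.30, 5.15 and 5.13 FPKM in CharmeWT, and 5.48 and 3.50 in CharmeKO, with a log2 fold change of -0.12 ± 0.22. The CharmeKO pools differed from each other more than the genotypes did for both genes.

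Because the 3 MEF2 proteins bind the same sites, the make-up of the family was compared within each pool. Mef2d supplied 53.3%, 58.7% and 56.3% of the summed MEF2 FPKM in the CharmeWT pools, and 36.7% and 53.7% in the CharmeKO pools. In CharmeKO pool 1 the leading gene was Mef2a, with 52.3% of the sum, whereas Mef2d led in the other 4 pools. The transcripts of Mef2d and Mef2a differ in GC content (57.0% against 42.7%), with which the changes in CharmeKO pool 1 went over all genes, as described below. The 2 genes also differ in the length of their merged exons (5985 against 14681 bases). With a per-pool correction for gene length and GC content, Mef2d led in all 5 pools, with 51.6%, 52.9% and 54.9% in CharmeWT and 49.2% and 49.8% in CharmeKO. These corrected shares did not overlap between the genotypes. Without the correction, the log2 ratio of Mef2d to Mef2a was 0.65 ± 0.20 (SD, n = 3) in CharmeWT and -0.01 ± 0.71 (n = 2) in CharmeKO. The groups overlapped in this uncorrected ratio. An exact permutation test gave p = 0.2 (two-sided, and 0.75 after adjustment over 5 ratios), where 0.1 is the smallest p that 10 assignments of the pools allow. This difference of -0.66 became -0.23 with the correction (exact permutation p = 0.2), -0.15 without CharmeKO pool 1 and -1.16 without CharmeKO pool 2. The summed MEF2 FPKM was 56.1, 61.3 and 61.1 in CharmeWT and 49.7 and 42.2 in CharmeKO, with no overlap.

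**Figure D2:**
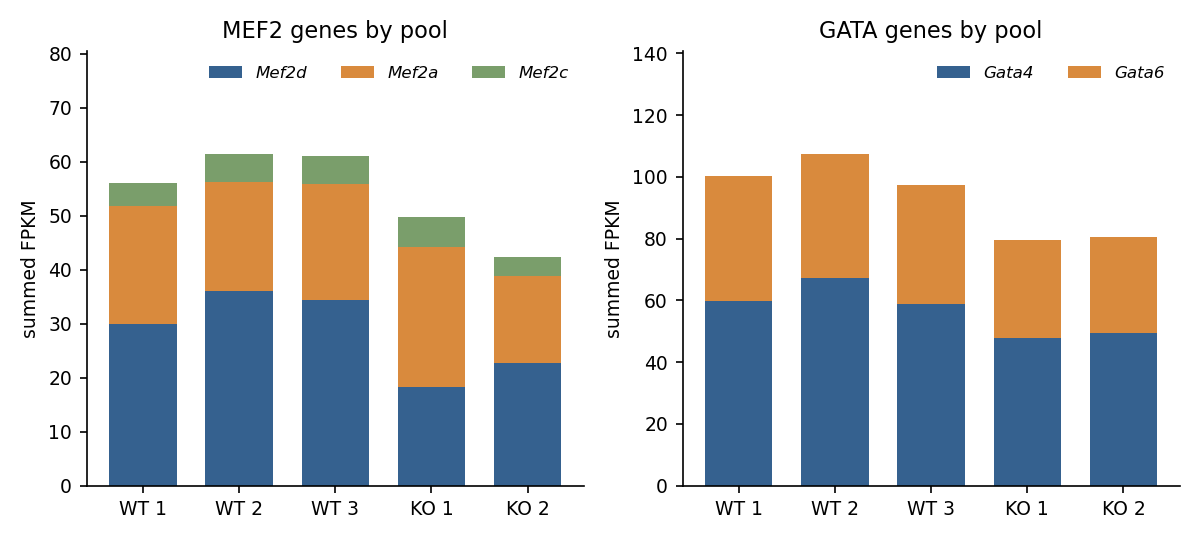
Stacked FPKM of the MEF2 genes (left) and of the GATA genes (right) in each pool, with CharmeWT pools 1 to 3 and CharmeKO pools 1 and 2 along the horizontal axis. These values are not corrected for GC content. Mef2d is the largest MEF2 segment in every pool but CharmeKO pool 1 (in every pool with the correction). The GATA bars of both CharmeKO pools are lower than every CharmeWT bar, with a similar division between Gata4 and Gata6. With the correction, CharmeKO pool 1 was below every CharmeWT pool for neither GATA gene.

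The start regions of Mef2d and Mef2a are shown because these paralogs gave the extremes of the 10 uncorrected fold changes. They come from RefSeq promoter windows on GRCm38.p6 of 250 bases before and 50 after an annotated start, which were found for 6 of the 10 genes (8 windows, 3 of them for Mef2c) and not for Gata4, Gata6, Tbx5 and Hand1. Each is printed up to base 20 from the start. Capitals mark matches, on either strand, to the elements of these protein families. The GATA element was searched as AGATAA. HAND and other basic helix-loop-helix proteins bind the E-box, searched as CANNTG. The T-box element was read as AGGTGT. For the NK2 proteins the letters were TNAAGTG. MEF2 proteins bind the element CTANNNNTAG. The E-box can share letters with the T-box and NK2 elements, while no matches overlapped in the windows printed here. Mef2d lies at chr3:88142122-88142391 on the plus strand and Mef2a at chr7:67372839-67373108 on the minus strand.
Mef2d: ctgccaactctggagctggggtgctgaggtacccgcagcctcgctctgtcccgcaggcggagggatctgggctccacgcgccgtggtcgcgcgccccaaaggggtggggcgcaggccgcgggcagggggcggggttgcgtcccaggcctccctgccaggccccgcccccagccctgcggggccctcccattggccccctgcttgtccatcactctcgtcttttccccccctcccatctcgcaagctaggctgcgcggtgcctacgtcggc
Mef2a: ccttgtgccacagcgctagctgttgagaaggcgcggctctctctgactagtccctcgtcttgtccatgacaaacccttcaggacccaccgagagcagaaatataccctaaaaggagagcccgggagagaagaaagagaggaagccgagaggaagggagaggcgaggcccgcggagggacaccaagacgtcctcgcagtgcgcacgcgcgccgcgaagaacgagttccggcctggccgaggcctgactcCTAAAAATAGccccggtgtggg
The Mef2a window held a MEF2 match that begins 2 bases before the annotated start, a match that 3.69% of all 32851 windows hold. The Mef2d window held none of the searched letters. Its GC content over 300 bases was 72.0%, higher than in 93.1% of windows, against 62.3% for Mef2a, and the windows had 24 and 27 CpG dinucleotides where the median window has 7. These matches describe the letters and not binding.

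The GATA genes had similar fold changes that did not pass the test. Gata4 (ENSMUSG00000021944; chromosome 14, 63198922 to 63271692, minus strand), needed for heart tube formation and cardiomyocyte proliferation, had FPKM values of 59.9, 67.3 and 59.0 in CharmeWT and 48.0 and 49.5 in CharmeKO. Gata6 (ENSMUSG00000005836; chromosome 18, 11052064 to 11085635, plus strand), which shares many of its targets, had 40.4, 40.0 and 38.3 against 31.7 and 31.1. In both cases the CharmeKO pools were close to each other and below every CharmeWT pool. With the correction for gene length and GC content, this no longer held for CharmeKO pool 1. That pool then had 236 corrected CPM for Gata4 (227, 245 and 220 in CharmeWT) and 278 for Gata6 (258, 233 and 224).

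The log2 fold changes were -0.35 ± 0.17 for Gata4 (95% interval -0.73 to 0.03) and -0.33 ± 0.16 for Gata6 (-0.70 to 0.03), with edgeR adjusted p-values of 0.298 and 0.308. Without the correction, the summed GATA FPKM averaged 102 ± 5.19 in CharmeWT and 80.1 ± 0.63 in CharmeKO. Gata4 made up 61.0 ± 1.53% of it in CharmeWT and 60.8 ± 0.82% in CharmeKO, and the Gata4 to Gata6 log2 ratio differed by -0.01 (exact permutation p = 0.9). Among the 10 genes each was the other's nearest by profile over the 5 pools (distance 0.142 between centred log2 CPM values), but of the 13423 protein-coding genes compared 49 lay closer to Gata4 and 46 closer to Gata6. The nearest to Gata4 were Ptgfrn and Ppp2r5b, and the nearest to Gata6 were Gas1 and Parp1.

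Nkx2-5 (ENSMUSG00000015579; chromosome 17, 26838664 to 26845009, minus strand) encodes the homeodomain factor of early cardiac progenitors and of the conduction system. Its FPKM was 102, 125 and 105 in CharmeWT and 70.1 and 94.1 in CharmeKO. Both CharmeKO pools were lower than all CharmeWT pools, but pool 2 kept 84.8% of the CharmeWT mean and pool 1 kept 63.2%. The log2 fold change was -0.43 ± 0.20 (95% interval -0.87 to 0.0014; edgeR adjusted p = 0.270). Its RefSeq start region, shown because it is the most abundant of the 10 genes, lies at chr17:26841546-26841815 on the minus strand. This window lies inside the gene as given above, whose outermost start on this strand is at 26845009, so it surrounds another annotated start.
Nkx2-5: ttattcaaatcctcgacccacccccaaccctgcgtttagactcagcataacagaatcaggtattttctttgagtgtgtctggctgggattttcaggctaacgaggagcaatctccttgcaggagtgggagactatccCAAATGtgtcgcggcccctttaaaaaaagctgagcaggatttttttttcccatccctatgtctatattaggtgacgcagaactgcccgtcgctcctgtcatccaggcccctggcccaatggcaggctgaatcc
The capitals mark its only match, an E-box at 113 bases before the start. An E-box is common, since 72.3% of windows hold one, and the letters of the NK2 element itself were not in this window (11.5% of windows hold them).

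The HAND genes differed most in level within a family. Hand2 (ENSMUSG00000038193; chromosome 8, 57320983 to 57324633, plus strand), required for the right ventricle, had FPKM values of 54.9, 54.6 and 61.0 in CharmeWT and 40.9 and 46.9 in CharmeKO. Hand1 (ENSMUSG00000037335; chromosome 11, 57828705 to 57832818, minus strand), active in the embryonic left ventricle, had 1.87, 2.38 and 1.82 against 1.38 and 1.41. Both genes had all CharmeKO pools below all CharmeWT pools. Hand1 rests on few reads, with 77, 84 and 72 counts in CharmeWT and 39 and 63 in CharmeKO.

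The log2 fold changes of the HAND genes were -0.37 ± 0.17 for Hand2 (edgeR adjusted p = 0.279) and -0.53 ± 0.31 for Hand1 (0.378). Hand2 supplied 95.8% to 97.1% of the summed HAND FPKM in every pool, and the log2 ratio of Hand2 to Hand1 differed between genotypes by 0.15 (exact permutation p = 0.6). Hand2 is overlapped by Hand2os1, a non-coding RNA of the opposite strand that starts 3250 bases from the start of Hand2. Hand2os1 had 2257, 787 and 1060 counts in CharmeWT and 1410 and 1357 in CharmeKO, where the CharmeWT pools spanned a wider range than the CharmeKO pools, and its log2 fold change was 0.21 ± 0.36 (edgeR adjusted p = 0.773). The authors counted by strand, so reads of the pair were kept apart. The start region of Hand2 at chr8:57320733-57321002 on the plus strand is printed because it was the only window with a GATA match.
Hand2: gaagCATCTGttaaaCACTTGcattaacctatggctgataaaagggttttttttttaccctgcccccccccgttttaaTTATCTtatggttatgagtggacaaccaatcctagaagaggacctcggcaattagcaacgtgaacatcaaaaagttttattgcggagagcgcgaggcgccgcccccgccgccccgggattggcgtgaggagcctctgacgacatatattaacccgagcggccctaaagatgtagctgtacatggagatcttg
Capitals mark 2 E-boxes at 246 and 235 bases before the start and the GATA match, TTATCT on this strand, at 172 bases before it. The GATA letters occur in 11.2% of windows.

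The T-box genes did not separate the genotypes. Tbx5 (ENSMUSG00000018263; chromosome 5, 119832668 to 119885219, plus strand), the factor of the left ventricle, atria and conduction system, had FPKM values of 7.80, 7.59 and 11.7 in CharmeWT and 4.73 and 8.28 in CharmeKO. CharmeKO pool 1 was below all CharmeWT pools, at 52.3% of their mean, while pool 2 was within their range. The log2 fold change was -0.47 ± 0.28 (edgeR adjusted p = 0.391).

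Tbx20 (ENSMUSG00000031965; chromosome 9, 24718138 to 24774303, minus strand), a T-box gene of chamber and valve, had 19.7, 22.8 and 23.4 FPKM in CharmeWT. It stood at 23.8 in CharmeKO pool 1, just above every CharmeWT pool, and at 16.8 in CharmeKO pool 2, below them all, with a log2 fold change of -0.12 ± 0.20. Tbx20 and Mef2c were the closest pair of the 10 by profile, at a distance of 0.108, but 11 protein-coding genes lay closer to Tbx20 and 4 closer to Mef2c. The nearest were Lrba (0.0533) and Xpr1 for Tbx20, and Tanc2 (0.0877) and Esrrg for Mef2c. The log2 ratio of Tbx5 to Tbx20 was -1.31 ± 0.30 in CharmeWT and -1.68 ± 0.93 in CharmeKO, with values of -2.33 in CharmeKO pool 1 and -1.02 in pool 2.

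The profiles of the other 6 core factors were likewise each nearest to genes outside the core set. These were Smtnl2 and Tgfbrap1 for Mef2d, Atp2c1 and Cabcoco1 for Mef2a, Ppp6r2 and Osbpl5 for Nkx2-5, Spire1 and Tctn1 for Tbx5, Grip2 and Prr7 for Hand1, and Zfp3 and Zadh2 for Hand2. Distances to these genes ran from 0.0260 to 0.146, while their nearest core factor lay between 0.228 and 0.585. Of the 13423 protein-coding genes compared, from 59 (Hand1) to 1322 (Tbx5) lay closer than the nearest core factor. With so few core factors among so many genes, a nearest gene outside the set says little about the factors. These distances are over 5 pools that all the genes share, and so describe these libraries. Of the other annotated genes that overlap a core factor or start within 5 kb of its start, none was called. These were Gm43050 beside Tbx5, Gm29824 beside Tbx20, 1010001N08Rik overlapping Gata6, 1700113A16Rik overlapping Mef2d, and Lysmd4, Gm44667 and Gm44668 overlapping Mef2a, of which Gm44667 and Gm44668 had too few reads to be tested. Gm43050, which starts 748 bases from Tbx5 on the other strand, had a log2 fold change of -0.46 ± 0.24 (edgeR adjusted p = 0.335). It had 195, 162 and 187 counts in CharmeWT and 99 and 148 in CharmeKO. Tbx5 had a similar mean change of -0.47, but with CharmeKO pool 2 within the CharmeWT range.

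**Figure D3:**
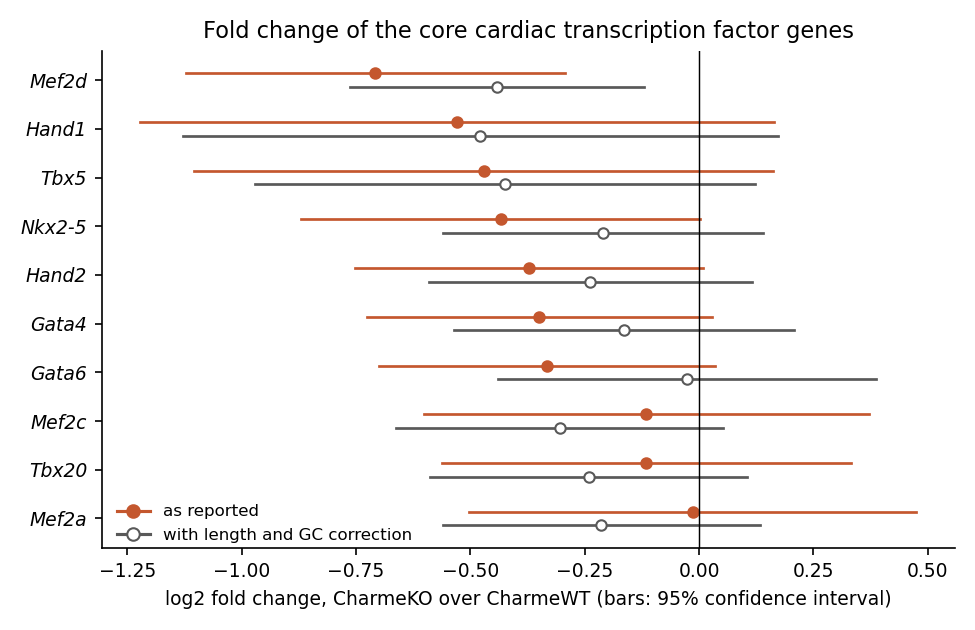
Log2 fold change (CharmeKO over CharmeWT) of each core factor with its 95% confidence interval, from edgeR's quasi-likelihood test as reported (filled) and after a per-pool correction for gene length and GC content (open). The intervals of Mef2d lie below 0 in both fits, and the correction brings Gata6 from -0.33 to -0.03.

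The CharmeKO pools were then taken singly. Pool 1 was below every CharmeWT pool for 7 core factors (38.6% of all tested genes) and above every one for 3 (39.1%), so that it lay outside the CharmeWT range for all 10. Pool 2 was below every CharmeWT pool for 9 (29.9%), with Tbx5 the exception, and above for none (30.4%). The median over the 10 genes, relative to the CharmeWT mean, was -0.42 in pool 1 and -0.36 in pool 2 on the log2 scale. Without CharmeKO pool 2, 4 core factors were called lower, Mef2d (adjusted p = 0.00843), Nkx2-5 (0.0242), Tbx5 (0.0297) and Hand2 (0.0636), in an edgeR fit that assumes the single CharmeKO pool to vary like the CharmeWT pools and that called 31.7% of the tested genes. Without pool 1, none was called.

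The sign in pool 1 went with the base composition of the transcripts. The 6 core factors with both CharmeKO pools below CharmeWT all fall in the fifth of tested genes with the highest transcript GC content (55.7% to 84.2%), and Tbx20, Mef2a and Mef2c, the 3 above CharmeWT in pool 1, fall in the fifth with the lowest (27.5% to 44.7%), where 3.53% of genes had both CharmeKO pools below CharmeWT. Tbx5 lies in the middle class. Over all tested genes of these classes, the median log2 change in pool 1 was -0.51 at the highest GC and 0.53 at the lowest, and in pool 2 it was -0.02 and 0.06. Gata4 and Gata6, at -0.37 and -0.32 in pool 1, were thus less reduced than the median gene of their class, and Mef2d, at -0.87, was more reduced. Tbx5, at -0.94, was far below the -0.06 of its class. In pool 2, where the classes were nearly level, the 3 low-GC factors were at -0.39 to -0.47 and the 6 high-GC factors at -0.24 to -0.56.

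**Figure D4:**
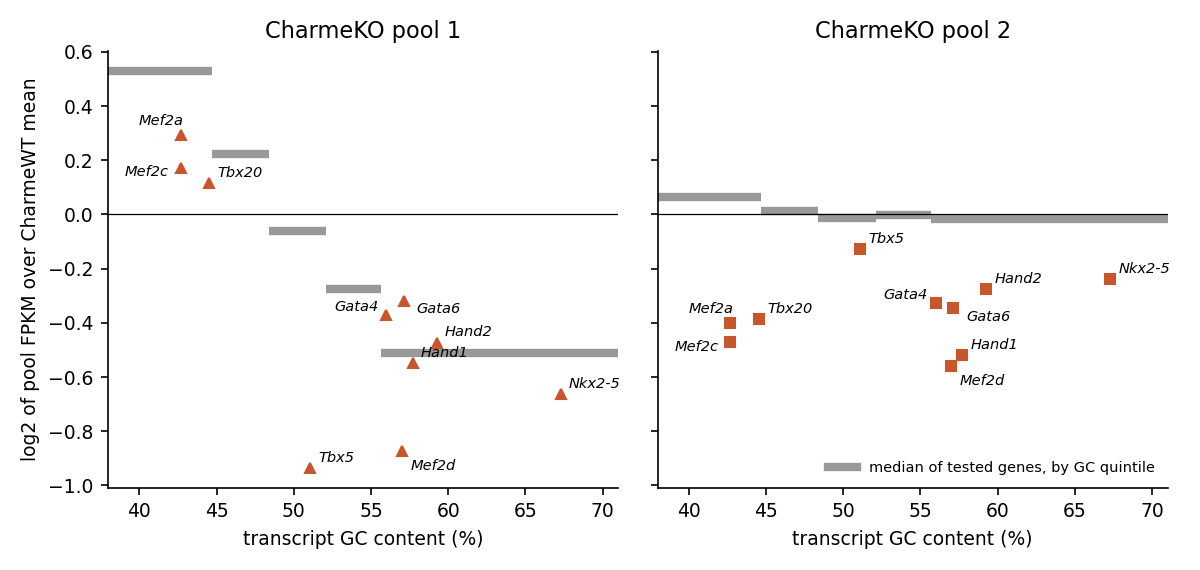
Log2 of each core factor's FPKM over the CharmeWT mean, against transcript GC content, in CharmeKO pool 1 (left) and pool 2 (right). Grey bars give the median of all tested genes in each GC quintile, which slopes from 0.53 to -0.51 in pool 1 and from 0.06 to -0.02 in pool 2, and all 10 genes lie below 0 in pool 2.

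With a per-pool correction for gene length and GC content, the log2 fold changes of the 10 genes remained below 0, with a median of -0.24. Both CharmeKO pools then lay below all CharmeWT pools for 4 genes, Mef2d, Hand1, Tbx20 and Mef2c, where 20.9% of all tested genes did so. Mef2d measured -0.44 ± 0.14 (95% interval -0.76 to -0.12; edgeR adjusted p = 0.175). Gata6 measured -0.03 ± 0.18, with 258, 233 and 224 corrected CPM in CharmeWT and 278 and 190 in CharmeKO, and Gata4 -0.16 ± 0.16. Hand1 measured -0.48 ± 0.29, the largest of the 10. Mef2c measured -0.30 ± 0.16 and Mef2a -0.21 ± 0.15. Mef2d and Hand1 thus had both CharmeKO pools below CharmeWT with and without the correction, while Gata4, Gata6, Nkx2-5 and Hand2 did so only without it.

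Other cardiac transcription factors and cofactors made up a list of 32 genes, of which 30 were tested (Isl1 and Mef2b had too few reads). A total of 22 had a log2 fold change below 0, 1 was called lower and none higher, and the median was -0.23. Of all tested genes, 48.2% were below 0 and 2.05% were called. The list was not matched to other genes by transcript GC content. Over all tested genes, the median was -0.22 in the fifth with the highest GC content and 0.31 in the fifth with the lowest. The called gene was Irx3, a homeobox gene of the ventricular conduction system. It had FPKM values of 23.7, 28.0 and 34.5 in CharmeWT and 11.6 and 17.2 in CharmeKO, without overlap, and a log2 fold change of -0.99 ± 0.24 (edgeR adjusted p = 0.0955). This call was lost in 11 of 19 alternatives, among them those without any 1 of the CharmeWT pools and without CharmeKO pool 1. Without CharmeWT pools 1, 2 or 3, only 2, 187 and 0 of all tested genes were called. The other extreme was Shox2, a sinoatrial node factor, at 1.18 ± 0.44 (adjusted p = 0.211) and under 1 FPKM in every pool.

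The most abundant genes of that list were Hopx, Smyd1 and Srf. Hopx, a homeodomain-only partner of SRF, reached 321 to 354 FPKM in CharmeWT and 576 and 362 in CharmeKO, both above the CharmeWT range, but did not pass the test (log2 fold change 0.46 ± 0.22). Srf, which drives muscle genes together with myocardin and MEF2, had a log2 fold change of 0.01 ± 0.17. Smyd1, a muscle methyltransferase needed for Hand2 expression, had -0.10 ± 0.22.

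Regulators of MEF2 activity numbered 18, all tested, with 14 below 0, none called and a median of -0.26. This list was not matched by transcript GC content either. Hdac5, a class IIa histone deacetylase that represses MEF2, showed the largest difference. It measured 18.6, 15.8 and 19.3 FPKM in CharmeWT and 9.47 and 13.0 in CharmeKO, without overlap, with a log2 fold change of -0.67 ± 0.20 (edgeR adjusted p = 0.152). Hdac4, of the same class, was at -0.56 ± 0.26 and near 1 FPKM. The coactivator Carm1 was at -0.36 ± 0.18, and Rcan1, a calcineurin inhibitor and the most abundant gene of the list, was at 0.27 ± 0.17 with both CharmeKO pools above CharmeWT.

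Known target genes of the core factors numbered 30, all tested. The list was divided, with 13 below 0 and 17 above, 2 called higher and 1 lower, and a median of 0.04. Myl4, the atrial essential light chain, rose from 92.0, 107 and 103 FPKM in CharmeWT to 224 and 239 in CharmeKO (log2 fold change 1.21 ± 0.18; edgeR adjusted p = 0.0343). Nppb, the B-type natriuretic peptide of the stretched ventricle, rose from 134, 169 and 79.7 to 913 and 261 (2.20 ± 0.45; adjusted p = 0.0633), with the CharmeKO pools far apart.

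Cacna1c, the pore subunit of the L-type calcium channel, fell from 9.52, 8.47 and 10.5 FPKM to 6.12 and 4.89 (log2 fold change -0.79 ± 0.19; edgeR adjusted p = 0.0958). The groups did not overlap for any of the 3 called targets. Of 19 alternatives, Myl4 was called in 17, Nppb in 14 and Cacna1c in 9, and none of them was called without CharmeWT pool 1 or without CharmeWT pool 3. Those 2 fits called only 2 and 0 of all tested genes. The most abundant targets, Actc1, Myl2 and Tnnc1 of the sarcomere, had log2 fold changes of 0.22 ± 0.37, 0.32 ± 0.35 and 0.36 ± 0.28, with overlapping pools and no call. Of the related genes together, 78 were tested and 4 were called, 2 in each direction, where 2.05% of all tested genes were called.

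**Figure D5:**
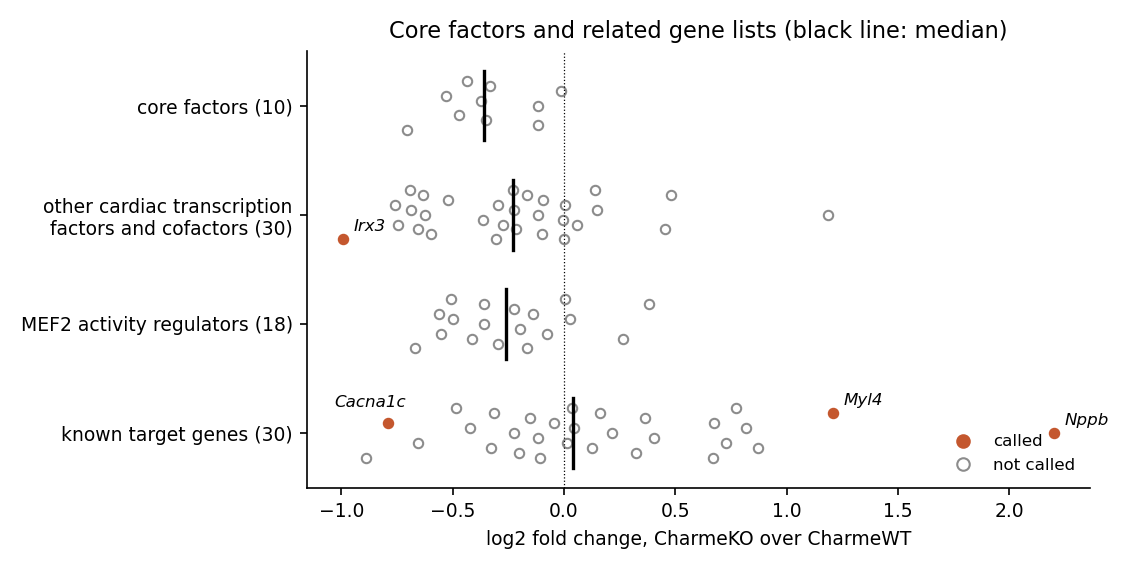
Log2 fold change (CharmeKO over CharmeWT) of the 10 core factors and of the tested genes of 3 related lists, with called genes filled and the black lines at the medians. The medians are -0.36 for the core factors, -0.23 for other cardiac transcription factors, -0.26 for MEF2 regulators and 0.04 for known targets, and the vertical position within a row has no meaning. The values are not corrected for GC content, and the lists were not matched by it.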

How the data were processed

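RNA from pooled PN2 hearts was prepared with a stranded mRNA kit from poly(A) RNA. According to the methods, Cutadapt and Trimmomatic were used on paired reads of 150 nucleotides, reads shorter than 35 nucleotides were dropped, and STAR mapped the rest to GRCm38 and counted them by strand on the genes of Ensembl release 87. The deposited counts are raw whole numbers. The FPKM values deposited by the authors, written with decimal commas, were used only as an alternative, and FPKM was computed here from the counts with merged exon lengths of GENCODE M21, which matched 49411 genes.

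Tested genes had 10 or more counts in 2 or more pools. They were scaled by TMM and compared between genotypes with edgeR 4.0.16 (R 4.3.3; quasi-likelihood, Benjamini-Hochberg adjustment over all tested genes). A call required an adjusted p below 0.1 together with a mean of 1 FPKM or more in either genotype. Log2 fold changes are CharmeKO over CharmeWT. The 23 tested genes without a length were given 1 kb. Transcript GC content is a length-weighted mean over annotated transcripts. The length and GC correction used splines with 4 degrees of freedom per pool. Profile distances used log2 CPM with a prior count of 2. Family ratios were compared by exact permutation tests. The scripts were tested on simulated data, and DESeq2 1.42.0 was an alternative. Named genes were the 10 factors, in each related list the called genes, the 3 most abundant and the 2 with the largest change, the nearest profiles and the gene neighbours. The members and lists were chosen with earlier results of these data known. Reads carry no molecular identifiers.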

Additional observations from a re-analysis of the deposited data

How the results depend on the processing

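In 17 alternatives each, Gata4, Gata6, Nkx2-5, Tbx5, Hand1, Hand2 and Mef2d stayed below 0. With 1 pool left out, Tbx5 ran from -0.94 without CharmeKO pool 2 to -0.13 without CharmeKO pool 1 and Nkx2-5 from -0.67 to -0.24 likewise. Mef2a turned to 0.0136 with upper-quartile scaling and ran from -0.40 to 0.28 when 1 pool was left out, Tbx20 from -0.39 to 0.11 and Mef2c from -0.47 to 0.17, each turning positive without CharmeKO pool 2. The median over the 10 genes moved from -0.36 to -0.24 with the length and GC correction, to -0.25 with that correction and a replicate block, and ran from -0.43 to -0.33 when 1 pool was left out. The number of core factors called was 1 with the likelihood ratio test, 1 with DESeq2 and 0 to 4 when 1 pool was left out.

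All genes called numbered 305, against 933 (likelihood ratio), 1122 (DESeq2), 111 (adjusted p under 0.05), 131 (length and GC correction with replicate block) and 0 to 4607 with 1 pool left out (0 without CharmeWT pool 3, 2 without CharmeWT pool 1, 187 without CharmeWT pool 2, 639 without CharmeKO pool 1, 4607 without CharmeKO pool 2). The 4 related genes called became 11, 14, 1 and 1 under the first 4 of these settings, 2 with the legacy and 1 with the robust quasi-likelihood fit, 2 with upper-quartile scaling and 0 to 30 with 1 pool left out. The Gata4 to Gata6 log2 ratio difference ran from -0.0543 to 0.0368 and that of Tbx5 to Tbx20 from -1.02 to 0.29, and that of Mef2d to Mef2a from -1.16 to -0.15, with 1 pool left out. With the length and GC correction, chosen for the ratios (as for the count of core factors below CharmeWT) after seeing the data, the 5 differences kept their signs. The cause of these shifts was not tested.

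Replicate numbers 1 and 2 occur in both genotypes, but nothing in the labels says that they mark a litter. With a replicate block the median over the 10 genes was -0.34, no core factor was called, 210 genes were called in all and Mef2d had an adjusted p of 0.154. The deviations of same-numbered pools from their group means correlated at 0.137 and 0.0778, and those of differently numbered pools at -0.137 to 0.0587. The 2 CharmeKO pools deviate by equal amounts in opposite directions, so their correlations differ only in sign. With 2 CharmeKO pools the spread within that genotype rests on a single difference, and Hand1, with 39 to 84 counts, is limited by depth.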
